A study of Mus musculus with 52 samples.

Results

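Mouse intestinal organoids kept in all-trans retinoic acid (atRA) were followed from day 3 to day 4 of culture, the day on which the medium that drives Wnt signalling was withdrawn. The 4 atRA libraries of day 4 were set against the 4 of day 3, chosen by their labels alone, so 8 of the 52 libraries in the series carry the comparison. Each day holds 2 cultures, from male wild type C57BL/6 littermates of 8 weeks, with RNA purified in duplicate from each. Single cells were seeded at 50000 per well, and 3 wells were pooled for RNA. A base medium with the growth factors EGF, R-spondin and Noggin was used throughout. Up to day 3 it was supplemented with CHIR99021 (3 µM), an inhibitor of the kinase GSK3, with Wnt3a-conditioned medium (20%) and with Y-27632 (10 µM), which blocks ROCK kinases, and from day 3 these additions were left out. The organoids received 10 µM atRA at day 0 and again at day 3, together with the change of medium. Organoids with the vehicle DMSO, or with 5 µM of an antagonist of the retinoid X receptors (RXRi), went through the same days and media, with 4 libraries for each day, and serve as the comparison. The harvests at 72 and 96 hours thus differ in age of the culture, in medium and in a repeated dose, and these cannot be told apart. The organoids come from 1 strain and 1 sex, and bulk RNA of pooled wells was measured, so fewer cells of a type and less RNA per cell cannot be told apart either.

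In the intestinal crypt, Wnt proteins and R-spondins keep stem cells and their dividing daughters in an undifferentiated state, and GSK3 inhibition mimics Wnt by sparing β-catenin from degradation. Daughters that leave this signal stop dividing and become absorptive enterocytes, or secretory goblet, Paneth, enteroendocrine and tuft cells. Retinoic acid, made from vitamin A, binds retinoic acid receptors that sit on DNA with a retinoid X receptor, a partner that PPAR, FXR, LXR and vitamin D receptors share.

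The 8 libraries held 18510360 to 26206028 reads and 15069 to 15404 genes above 0, and 3 reads in a gene of 1 kb amount to 0.114 to 0.162 RPKM (reads per kilobase of gene, relative to the library total). Duplicates of a culture differed by 1.98 to 2.94 in chi-square per degree of freedom. Between cultures, with the reads of both duplicates summed, the value was 39.7 on day 3 and 54.2 on day 4. Summed reads are deeper, which raises the value, so these figures are not on 1 scale. Duplicates share a culture, so the culture was the replicate (n = 2 per group). All 8 epithelial markers were at or above 1 RPKM on both days and summed to 4484 to 4686 RPKM per library on day 3 and 4238 to 5163 on day 4. Of the markers of other cell types only Vim, Lyve1, Cd68 and Itgam reached a mean of 1 RPKM on either day, and Cd3g, Cd8a, Cdh5, Kdr, Sox10, Col3a1, Dcn, Lum and Thy1 were at 0 in all 8. The 11 fibroblast markers summed to 1.34 to 1.79 RPKM on day 3 and 4.61 to 6.65 on day 4, the 7 endothelial ones to 1.08 to 1.51 and 1.98 to 2.45, and the 13 immune ones to 5.19 to 6.67 and 4.67 to 7.30. Among them Vim, an intermediate filament gene of stromal and some epithelial cells, went from 1.62, 1.33, 1.31 and 1.19 to 6.39, 5.06, 4.51 and 4.18 RPKM, a rise of 1.34 ± 0.24 (adjusted p = 0.00015). The part of such cells in the results was not tested.

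A large share of genes moved between the days. Changes are given as log2 fold changes of log2(RPKM + 1), day 4 minus day 3, with their standard error, and a gene was called at an adjusted p under 0.05 in limma. Of 12445 genes tested, 2228 were higher on day 4 (17.9%) and 4919 lower (39.5%). At 2-fold or more, 695 were higher (5.58%) and 685 lower (5.5%). Rises reached further than falls: those of the named genes went up to 5.13 (Reg1), and their falls to -1.82 (Tspan4, a membrane tetraspanin). All 2228 higher genes had the same sign in both cultures, as had 4918 of the 4919 lower ones. The calls rest on the mean of these same cultures, which favours a shared sign, so these counts are no separate check. Culture 2 moved further in 1573 of the higher genes, with medians of 0.65 in culture 1 and 0.76 in culture 2. Across all tested genes the steps of the cultures correlated with a Pearson r of 0.899 and a Spearman rho of 0.870, a description over genes, which are not independent.

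The balance of higher and lower calls depended on how libraries were scaled. RPKM divides by the library total, and the most abundant genes of each day filled more of that total on day 4. The 50 most abundant genes took 10.2 to 11.4% of the reads on day 3 and 14.4 to 15.0% on day 4, and Fabp1, the liver fatty acid-binding protein of enterocytes, went from 0.358 to 0.393% to 1.07 to 1.17%. The median gene stood at -0.18 on the deposited scale and at 0.04 once libraries were scaled by the median of ratios, and the median of the gene-wise shifts was 0.27. Whether the larger share of abundant genes accounts for this shift was not tested. Scaled in this way, 3694 genes were higher (29.7%) and 2829 lower (22.7%), and at 2-fold or more 1069 were higher (8.59%) and 156 lower (1.25%). All 2228 of the higher genes above were among the 3694, and 2829 of the 4919 lower ones were still called. A gene list is therefore given with its counts under both scalings, those of the scaled values following as "scaled", and falls are to be read against a median gene at -0.18.

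**Figure D1:**
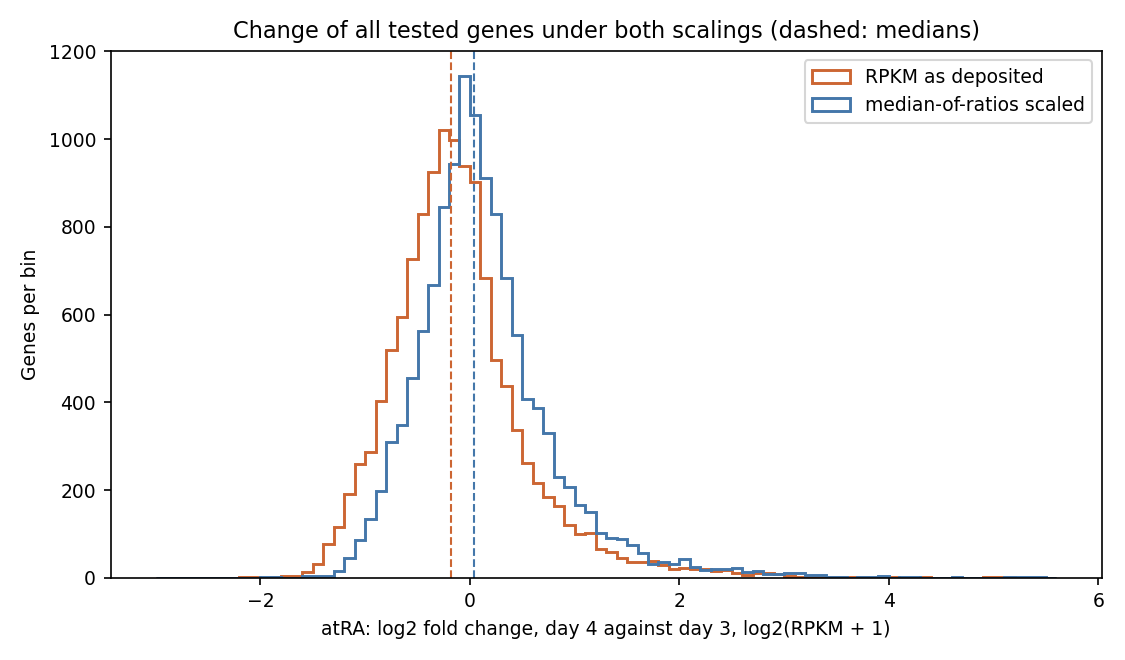
Histogram of the log2 fold change from day 3 to day 4 with atRA (x axis) over all 12445 tested genes (y axis, genes per bin of 0.1), for RPKM as deposited and after median-of-ratios scaling, with medians dashed. The deposited values centre at -0.18 and the scaled ones at 0.04, and both have a longer tail to the right.

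Genes that Wnt signalling switches on were lower on day 4. Of 16 measured Wnt targets, 11 fell, where 39.5% of all genes did, and 0 rose (scaled, 7 and 0), with a median of -0.67. Cyclin D1 (Ccnd1), which drives entry into the cell cycle, stood at 91.8, 93.9, 101 and 97.9 RPKM in the 4 libraries of day 3, the duplicates of culture 1 first, and at 35.9, 37.1, 35.4 and 36.7 on day 4. The days did not overlap, and the fall was -1.38 ± 0.15 (adjusted p = 1.52e-06). The adhesion receptor Cd44 went from 21.1, 20.4, 25.7 and 25.9 to 10.2, 9.38, 8.59 and 7.96 RPKM, a fall of -1.27 ± 0.14 (adjusted p = 2.21e-06). Tcf7, one of the transcription factors that carry the signal on DNA, changed by -1.08 ± 0.09. Ephb2, a receptor that positions cells in the crypt, changed by -0.80 ± 0.13, and the feedback inhibitors Rnf43 and Znrf3, which clear Wnt receptors from the membrane, by -0.72 ± 0.11 and -0.73 ± 0.12. These 6 genes were called under both scalings, and in each the lowest library of day 3 lay above the highest of day 4.

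Axin2, the feedback inhibitor most used as a readout of the pathway, moved less. It stood at 32.0, 31.1, 33.4 and 34.1 RPKM on day 3 and at 19.5, 18.5, 20.5 and 20.9 on day 4. No library of day 4 reached the level of day 3, and the change was -0.69 ± 0.20 (adjusted p = 0.00796), or -0.40 scaled, where it missed the threshold (adjusted p = 0.0941). Sox9, a crypt transcription factor, changed by -0.64 ± 0.20 and likewise missed it when scaled (adjusted p = 0.125). Myc changed by -0.73 ± 0.17, from 72.1, 75.9, 76.3 and 77.2 to 48.1, 43.4, 42.6 and 46.1 RPKM, and kept its call when scaled (adjusted p = 0.0217). Sp5 had overlapping libraries and a change of -0.43 ± 0.25 (adjusted p = 0.156). Ephb3 changed by -0.27 ± 0.12 (adjusted p = 0.0632). The 5 listed targets that did not pass the filter reached at most 0.168 RPKM.

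Among the 17 measured ligands, receptors and signal carriers, 2 rose and 5 fell (scaled, 4 and 3). Both shares were below those over all genes, 17.9% and 39.5% (scaled, 29.7% and 22.7%). The falls included the receptor Fzd6 (-1.05 ± 0.11), Wls, which escorts Wnt proteins to the cell surface (-0.93 ± 0.12), and the co-receptor Ryk (-0.81 ± 0.10). Higher were the receptor Fzd5 (0.31 ± 0.11) and Tcf7l2 (0.72 ± 0.14), the main TCF factor of the intestine, whose libraries read 4.11, 4.29, 4.15 and 4.26 RPKM on day 3 and 8.79, 8.63, 6.58 and 6.55 on day 4. Culture 1 showed the larger rise, 0.90 against 0.54 in culture 2.

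Of 20 measured stem cell markers 10 fell and 2 rose (scaled, 7 and 2), where 39.5% and 17.9% of all genes did (scaled, 22.7% and 29.7%), a share of falls near the background. Lgr5, the R-spondin receptor that defines crypt base stem cells, read 9.67, 8.21, 5.14 and 5.81 RPKM on day 3 and 8.94, 8.67, 5.99 and 5.92 on day 4. Its libraries overlapped and the difference was 0.04 ± 0.24 (adjusted p = 0.888), smaller than the gap between the cultures. Olfm4, a secreted glycoprotein of crypt base cells, went the other way from most of the list, from 17, 16.1, 13.4 and 13.9 to 56.2, 55.2, 82.9 and 76.5 RPKM. That was a rise of 2.08 ± 0.53 (adjusted p = 0.00299), and it reached 134 RPKM as a mean on day 5. The vitamin D receptor Vdr also rose (1.02 ± 0.10). Slc12a2, an ion cotransporter of crypt cells, fell by 1.14 on the log2 scale, Cdk6, a cell cycle kinase, by 1.07 and Hopx, a homeodomain protein, by 1.0.

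Genes of cell division fell almost as a block. Of 44 DNA replication genes 43 fell (scaled, 40) and 0 rose, with a median of -1.12, against -0.18 for all genes. Mitosis genes fell in 34 of 34 (scaled, 33), with a median of -1.15. Rrm2, the subunit of ribonucleotide reductase that sets the supply of DNA building blocks, read 119, 119, 123 and 122 RPKM on day 3 and 38.1, 37.6, 29.4 and 30.9 on day 4. The fall of -1.81 ± 0.13 (adjusted p = 8.63e-08) had the smallest p of the replication genes named, and it was -1.63 in culture 1 and -1.99 in culture 2. Ccne1, the cyclin that starts DNA replication, went from 20.6, 22.4, 23.9 and 23 to 6.49, 5.87, 6.38 and 6.20 RPKM (-1.70 ± 0.24, adjusted p = 1.51e-05). Cdk1, the kinase of mitosis, went from 74.5, 73.8, 75.6 and 75.7 to 32.0, 32.3, 32.5 and 29.7 RPKM (-1.22 ± 0.14). Hells, a chromatin remodeller of dividing cells, Prim1, a primase subunit, and the spindle genes Nuf2, Tpx2 and Bub1 changed by -1.63, -1.36, -1.26, -1.26 and -1.13.

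Many replication genes are known targets of E2F factors, so their promoters were searched for the letters these factors bind. The E2F motif was searched as TTTGGCGC, TTTCGCGC, TTTCCCGC and TTTGCCGC on both strands, in RefSeq windows of GRCm38.p6 from 250 bases before to 50 after a gene's start. It was in 15 of the 39 windows of DNA replication genes (38.5%), in 4 of 28 of ribosome biogenesis genes (14.3%) and in 4.01% of the 12431 windows of all tested genes. Windows were found for 33 of the 44 replication genes. A match is a description of letters and not a site of binding. The 2 called members with the smallest p whose match lay upstream of the start are shown for 120 bases of their own strand, with the match, on the opposite strand in both, in capitals. Gins3 (chr8:95633436-95633555, plus strand) encodes a subunit of the GINS helicase complex, and its motif spans bases 41 to 34 before the start. Pola1 (chrX:93632256-93632375, minus strand) encodes the catalytic subunit of DNA polymerase alpha, with the motif at 138 to 131.
Gins3: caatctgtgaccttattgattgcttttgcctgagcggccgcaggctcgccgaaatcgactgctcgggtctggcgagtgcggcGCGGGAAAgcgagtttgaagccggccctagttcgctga
Pola1: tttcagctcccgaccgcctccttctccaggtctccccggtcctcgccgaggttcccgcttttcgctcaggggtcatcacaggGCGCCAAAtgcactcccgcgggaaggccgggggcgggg
Gins3 went from 5.48, 5.49, 6.47 and 5.92 to 2.46, 2.74, 2.11 and 2.53 RPKM, a fall of -0.98 ± 0.10 (adjusted p = 1.35e-06), and Pola1 changed by -1.01 ± 0.12 (adjusted p = 3.11e-06).

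Genes of ribosome production fell too. Of 30 ribosome biogenesis genes 30 were called lower (scaled, 29), and their median of -1.25 was below that of both division lists. Ncl, nucleolin, read 268, 261, 348 and 333 RPKM on day 3 and 105, 103, 108 and 105 on day 4 (-1.5 ± 0.16, adjusted p = 1.28e-06). Npm1, nucleophosmin, changed by -1.41 ± 0.14 and Gnl3, nucleostemin, by -1.58 ± 0.17. Snhg3 and Snhg5, host genes of small nucleolar RNAs, changed by -1.71 and -1.68, and the RNase P subunit Pop1 by -1.67. Srm, Amd1 and Odc1, enzymes of polyamine synthesis from the list of the urea cycle, arginine and glutamine, changed by -1.5, -1.47 and -1.15, and the amino acid transporter Slc7a5 by -1.57.

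Genes of the absorptive enterocyte were among those that rose furthest. Of 19 measured digestive enzymes of the brush border 17 rose and 0 fell, with a median of 2.00 (scaled, 17 and 0). Sis, sucrase-isomaltase, which splits dietary sugars, read 29.4, 30.4, 38.1 and 47.9 RPKM on day 3 and 284, 295, 357 and 323 on day 4. The gap between days was larger than that between cultures (3.10 ± 0.22, adjusted p = 6.15e-08). Intestinal alkaline phosphatase (Alpi) went from 61.6, 65.8, 61.9 and 68.2 to 366, 372, 448 and 438 RPKM (2.63 ± 0.17, adjusted p = 3.07e-08). Ggt1, which breaks down glutathione, changed by 4.04 ± 0.35, Treh, which splits trehalose, by 3.45 ± 0.42 and the protease Mep1b by 2.15 ± 0.14. Lct, lactase, was low, at 0.397, 0.52, 0.493 and 0.435 RPKM on day 3 and 1.0, 1.01, 1.14 and 1.44 on day 4, with a change of 0.55 ± 0.33 (adjusted p = 0.163). CDX2, the homeodomain factor of the intestine, is known to bind the Sis promoter. A CDX motif was searched as TTTATGG or TTTATTG on both strands. It was in 3 of 20 windows of digestive enzymes (15%), in 3 of 16 of apolipoprotein and chylomicron genes (18.8%) and in 4.22% of all. Windows of retinoic acid receptors and targets held it as often as those of digestive enzymes, in 3 of 20 (15%). Of the other motifs searched on both strands, TCF/LEF (CTTTGAA or CTTTGAT) was in 1 of 12 windows of Wnt targets (8.33%), 4 of 20 of digestive enzymes (20%) and 6.06% of all. AGATAA, known to be bound by Gata4 and its relatives, was in 4 of 20 of digestive enzymes, 2 of 12 of Wnt targets (16.7%) and 6.72% of all. HNF4 (CAAAGTCCA) was in 2 of 20 of digestive enzymes (10%), 0 of 16 of apolipoprotein genes and 0.539% of all. The retinoic acid response element was a pair of half-sites (AGGTCA or AGTTCA or GGGTCA or GGTTCA) in the same direction 1, 2 or 5 bases apart. It was in 0 of 20 windows of retinoic acid receptors and targets, 1 of 20 of digestive enzymes (5%) and 0.314% of all. In Sis (chr3:72967879-72967998, minus strand, GRCm38.p6) the CDX motif spans bases 52 to 46 before the start, in capitals, and reads on the opposite strand.
Sis: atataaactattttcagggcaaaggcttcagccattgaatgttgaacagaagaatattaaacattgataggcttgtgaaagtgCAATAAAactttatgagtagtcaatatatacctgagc

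Genes of fat export rose as well. Of 22 apolipoprotein and chylomicron genes 21 rose and 0 fell, under both scalings, with a median of 1.88. Apoa4, an apolipoprotein of chylomicrons, the particles that carry dietary fat, read 43.5, 48.6, 24.1 and 27.0 RPKM on day 3 and 1366, 1341, 1049.9 and 1065 on day 4. Its rise of 5.08 ± 0.45 (adjusted p = 4.15e-07) was 4.85 in culture 1 and 5.32 in culture 2. Apoa1, the main protein of high-density lipoprotein, went from 71.1, 73.3, 49.2 and 61.1 to 1204, 1147, 1444 and 1454 RPKM (4.35 ± 0.24, adjusted p = 7.12e-09). Apoc3, an inhibitor of lipoprotein breakdown, changed by 3.90 ± 0.34 from a day 3 mean of 3.09 ± 1.59 RPKM (SD, n = 2). These 3 genes are neighbours on chromosome 9 (GRCm38.p6), Apoa1 from 46228630 to 46230469, Apoc3 from 46233050 to 46235636 and Apoa4 from 46240844 to 46243458. Cd36, a fatty acid receptor, rose from 0.135, 0.184, 0.254 and 0.241 to 6.37, 6.13, 11.2 and 9.45 RPKM (2.91 ± 0.24). Cideb and Tm6sf2, which help load lipid onto lipoproteins, changed by 2.39 ± 0.21 and 2.49 ± 0.21.

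Nutrient transporters rose in 22 of 26 and fell in 1, with a median of 1.53 (scaled, 23 and 0). The sodium-glucose transporter Slc5a1 read 57.3, 52.7, 48.1 and 49.7 RPKM on day 3 and 239, 249.8, 257 and 244 on day 4 (2.23 ± 0.19, adjusted p = 1.95e-07). Slc3a1 and Slc7a9, which together import cystine and basic amino acids, changed by 2.46 ± 0.19 and 1.96 ± 0.18. The lone fall was the monocarboxylate transporter Slc16a1 (-0.44 ± 0.09), a call that was lost when scaled (-0.14, adjusted p = 0.261). Of 17 genes that build microvilli 13 rose and 0 fell (scaled, 14 and 0), among them the motor Myo1a (1.92 ± 0.14) and the cadherins Cdhr5 (1.80 ± 0.22) and Cdhr2 (1.4 ± 0.15), which link microvilli at their tips. Vil1, villin, already stood at 221 to 234 RPKM on day 3 and reached 348 to 377 (0.66 ± 0.09).

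Genes that mark both ends of the villus rose. Of 9 villus base genes 8 rose and 1 fell (scaled, 8 and 0), and of 10 villus tip genes 6 rose and 0 fell under both scalings. At the base, Reg1, a secreted lectin-like protein, had the largest rise of the named genes. It read 5.43, 6.00, 5.12 and 7.82 RPKM on day 3 and 171, 178, 377 and 309.8 on day 4 (5.13 ± 0.42, adjusted p = 2.05e-07), and culture 2 stood above culture 1 on day 4. Reg3a and Reg3g, antibacterial lectins, lie beside it on chromosome 6. Reg3a went from 1.38, 1.78, 1.37 and 1.66 to 44.0, 49.6, 159 and 130.5 RPKM (5.03 ± 0.64), again higher in culture 2, and Reg3g changed by 2.44 ± 0.34. At the tip, Krt20, a keratin of mature surface cells, changed by 2.99 ± 0.30 and Creb3l3, a transcription factor of lipid metabolism, by 2.90 ± 0.31.

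**Figure D2:**
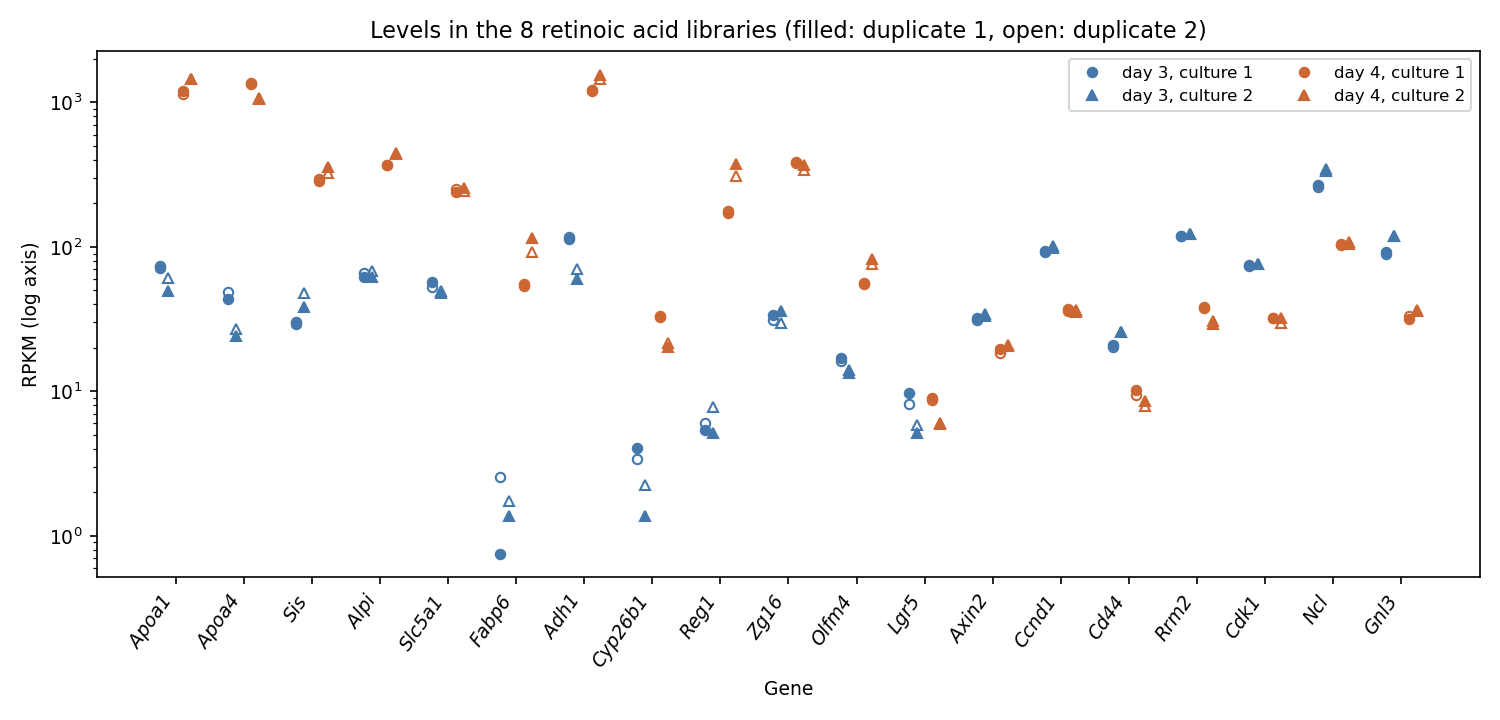
Levels (y axis, RPKM on a log axis) of 19 named genes (x axis) in the 8 atRA libraries, blue for day 3 and orange for day 4, circles for culture 1 and triangles for culture 2, filled for duplicate 1 and open for duplicate 2. From Apoa1 to Olfm4 every day 4 library lies above every day 3 library, Lgr5 overlaps, and from Axin2 to Gnl3 every day 4 library lies below.

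Secretory genes rose in part. Of 21 goblet cell genes 13 rose and 1 fell, with a median of 0.75 (scaled, 16 and 0). Zg16, a lectin of the mucus layer, read 33.5, 31.4, 35.8 and 29.8 RPKM on day 3 and 379.9, 389, 369 and 342 on day 4 (3.46 ± 0.22, adjusted p = 2.19e-08), with little spread between cultures. Muc2, the main mucin of intestinal mucus, went from 4.81, 4.00, 4.95 and 5.90 to 21.8, 23.7, 23.6 and 21.6 RPKM (2.01 ± 0.24, adjusted p = 3.54e-06). Of 23 Paneth cell genes, many of them near-identical defensin copies whose reads cannot be told apart, 13 rose and 1 fell (scaled, 16 and 0). Lyz1, Paneth cell lysozyme, read 239.6, 245, 201 and 202 RPKM on day 3 and 315, 318, 272 and 268 on day 4. Its change of 0.40 ± 0.26 missed the threshold as deposited (adjusted p = 0.209) and passed it when scaled (0.70, adjusted p = 0.0277). Pnliprp2, a lipase, changed by 2.58 ± 0.36 and the pentraxin Mptx1 by 1.82 ± 0.29.

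Enteroendocrine genes rose in 8 of 30 and fell in 0 (scaled, 12 and 0), where 17.9% and 39.5% of all genes did (scaled, 29.7% and 22.7%). The hormone genes Ghrl, Gip and Tac1 changed by 1.2 ± 0.26, 0.89 ± 0.25 and 1.25 ± 0.29, and Cck by 0.80 ± 0.26. Cck had a mean of 367 ± 39.6 RPKM on day 1, 12.9 ± 0.0043 on day 3 and 23.3 ± 4.53 on day 4 (SD, n = 2). Neurog3, the factor that specifies the lineage, changed by -0.59 ± 0.33 (adjusted p = 0.131). Of 9 tuft cell genes 2 rose and 0 fell (scaled, 3 and 0), a share of rises near that over all genes. The 18 Notch pathway and secretory fate genes changed sides with the scaling, 0 rising and 3 falling as deposited and 3 and 1 when scaled. Each of these Notch shares was below that over all genes. Atoh1, which sets the secretory fate, changed by 0.31 ± 0.16 (adjusted p = 0.118, scaled 0.00401), and the Notch target Hes1 by 0.13 ± 0.08 (adjusted p = 0.212, scaled 0.000445).

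With atRA present on both days, retinoic acid receptors and targets moved in part. Of 21 genes listed 12 could be tested, and the 9 others, among them Rarb, Cyp26a1 and Stra6, did not pass the filter and reached at most 0.378 RPKM in the 8 libraries. As deposited 4 rose and 1 fell, and when scaled 6 rose and 0 fell. Over all genes 17.9% rose and 39.5% fell (scaled, 29.7% and 22.7%). The median of the list was 0.08 with atRA and 0.23 with DMSO. Cyp26b1, the enzyme that breaks retinoic acid down, read 4.08, 3.41, 1.37 and 2.26 RPKM on day 3 and 33.1, 32.6, 20.2 and 21.8 on day 4. The libraries did not overlap, culture 1 was the higher one on both days, and the rise was 2.91 ± 0.34 (adjusted p = 3.41e-06). Dhrs3, a reductase that returns retinal to retinol, changed by 1.15 ± 0.18 (adjusted p = 5.98e-05). The receptor Rxra changed by 0.96 ± 0.08 and Rara by 0.49 ± 0.10, while Rarg (0.30 ± 0.23, adjusted p = 0.274) and Rxrb (-0.17 ± 0.12, adjusted p = 0.252) overlapped between days. Isx, an intestinal homeobox gene induced by retinoic acid, was high on both days, at 244, 232, 227 and 224 and 248, 252, 239 and 240.5 RPKM, and its change of 0.08 ± 0.14 passed the test only when scaled (0.38, adjusted p = 0.0263). The same held for Tgm2, a transglutaminase, at 0.08 ± 0.10 (scaled adjusted p = 0.00362). Rai1, the member that fell, lost its call when scaled (adjusted p = 0.347).

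The machinery that handles vitamin A rose more broadly. Of 25 measured genes of uptake and oxidation 16 rose and 1 fell (scaled, 17 and 0), with a median of 0.78, against 0.64 with DMSO. Adh1, an alcohol dehydrogenase that oxidises retinol, read 113, 118, 59.9 and 70.9 RPKM on day 3 and 1224, 1210.1, 1557 and 1459.9 on day 4 (3.95 ± 0.31, adjusted p = 1.62e-07). Rdh7, a retinol dehydrogenase, went from 1.23, 1.5, 1.28 and 1.53 to 23.4, 24.1, 43.0 and 36.9 RPKM (3.74 ± 0.31, adjusted p = 1.95e-07). Adh4 changed by 3.70 ± 0.22 and Aldh1a7 by 2.5 ± 0.15. Of 21 genes of the homeobox clusters, classical targets of retinoic acid in the embryo, 0 passed the filter, 4 were at 0 in all 8 libraries and the highest value was 0.572 RPKM (Hoxa9).

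Targets of the receptors that pair with retinoid X receptors rose as well, with medians near those of the DMSO step. Bile acid and FXR genes had medians of 1.03 with atRA and 0.93 with DMSO, and LXR target and sterol transport genes 0.72 and 0.68. PPAR, the sensors of fatty acids, had 28 of 33 targets higher and 0 lower (scaled, 29 and 0), with a median of 0.84 (0.82 with DMSO). The peroxisomal enzymes Acaa1b and Ehhadh changed by 2.77 ± 0.22 and 1.85 ± 0.11. Of 10 bile acid and FXR genes 8 rose and 0 fell under both scalings. Fabp6, which carries bile acids through ileal enterocytes, was low on day 3, at 0.754, 2.57, 1.37 and 1.76 RPKM, and read 55.3, 53.5, 115 and 91.9 on day 4. It rose by 4.91 ± 0.32 (adjusted p = 3.1e-08), further in culture 2. Slc51a and Slc51b, the subunits of the bile acid exporter, changed by 3.06 ± 0.26 and 2.77 ± 0.25. The ileal uptake carrier Slc10a2 stayed low, at 0.265, 0.5, 0.245 and 0.58 and 0.746, 0.513, 0.464 and 0.398 RPKM (0.13 ± 0.29, adjusted p = 0.718), and the FXR target Fgf15 read 60.1, 60.0, 66.6 and 68.0 RPKM on day 3 and 33.1, 28.8, 25.1 and 23.8 on day 4 without passing the test (-1.18 ± 0.66, adjusted p = 0.14). Of 14 LXR target and sterol transport genes 10 rose and 1 fell (scaled, 12 and 0), with Npc1l1, which takes up cholesterol, at 1.64 ± 0.16 and Abcg8, which returns sterols to the lumen, at 1.47 ± 0.19.

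Among 41 intestinal transcription factors and nuclear receptors 15 rose and 1 fell (scaled, 25 and 1), where 17.9% and 39.5% of all genes did (scaled, 29.7% and 22.7%). The median of the list was 0.20 with atRA and 0.53 with DMSO. Hnf4g, an enterocyte factor, went from 16.7, 20.4, 21.5 and 24.5 to 62.2, 65.2, 71.3 and 62.6 RPKM (1.62 ± 0.18, adjusted p = 1.76e-06). Ppara changed by 1.23 ± 0.15, the FXR gene Nr1h4 by 0.67 ± 0.13, and the xenobiotic receptors Nr1i3 and Nr1i2 by 2.38 ± 0.21 and 0.57 ± 0.11. The factor that fell, Foxa1, a pioneer factor of endodermal and secretory cells, went from 20.4, 20.3, 21.0 and 21.7 to 11.5, 11, 8.17 and 9.33 RPKM (-1.0 ± 0.17).

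Other programmes moved in part or with the scaling. Xenobiotic enzymes and efflux pumps rose in 29 of 34 and fell in 2 (scaled, 30 and 2), with the epoxide hydrolase Ephx2 at 3.29 ± 0.25 and the carboxylesterase Ces1d at 3.73 ± 0.19. The falls were Cyp1a1 (-0.91 ± 0.33) and Aldh3a1 (-0.85 ± 0.22), both known targets of the aryl hydrocarbon receptor. Of 15 p53 targets 8 fell and 3 rose (scaled, 6 and 3): Bax, a death effector, changed by -0.72 ± 0.10 and the cell cycle inhibitor Cdkn1a by 0.87 ± 0.23. Of 22 fetal-like and regeneration genes 6 fell and 1 rose, against 1 and 1 when scaled, a smaller share of falls than the 39.5% of all genes (scaled, 22.7%). Clu, clusterin, changed by -0.84 ± 0.26 and lost its call when scaled (adjusted p = 0.0652). Of 17 YAP targets 5 fell and 1 rose (scaled, 3 and 2), again no larger a share than over all genes, with Ccn2, a matricellular protein, at -1.39 ± 0.30. Endoplasmic reticulum chaperones changed sides, 4 of 19 rising and 8 falling as deposited and 7 and 0 when scaled. Of 17 integrated stress response genes 8 fell and 2 rose (scaled, 5 and 3), and its members Psat1, Phgdh and Shmt2, enzymes of serine and glycine synthesis, changed by -1.48 ± 0.16, -1.31 ± 0.15 and -1.34 ± 0.15.

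Of 12 genes of fructose use and gluconeogenesis 10 rose and 1 fell under both scalings, with ketohexokinase (Khk), which phosphorylates fructose, at 2.35 ± 0.26. In the list of the urea cycle, arginine and glutamine 4 of 17 rose and 6 fell (scaled, 5 and 6). Arg2, mitochondrial arginase, went from 9.59, 11.9, 12.8 and 17.1 to 114, 113, 244 and 222 RPKM (3.59 ± 0.33, adjusted p = 4.94e-07), while Srm, Amd1 and Odc1 of the same list fell. Immediate early genes rose in 6 of 20 and fell in 1 (scaled, 9 and 1). NRF2 antioxidant genes rose in 3 of 15 and fell in 4 (scaled, 4 and 3), among them Prdx1, a peroxidase, whose sign turned with the scaling (-0.19 as deposited and 0.12 scaled, adjusted p = 0.0357 and 0.223). Actin and contractility genes rose in 6 of 24 and fell in 5 (scaled, 7 and 3), and basement membrane and integrin genes in 4 of 21 and 6 (scaled, 7 and 2). Over all genes 17.9% rose and 39.5% fell (scaled, 29.7% and 22.7%), the background these counts are to be read against.

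Organoids with DMSO went through the same days and media, and their step was set beside that with atRA. Across the 12445 genes the steps, which share no library, correlated with a Pearson r of 0.922 and a Spearman rho of 0.920, a description over genes that share the scaling. The DMSO step had the same sign in 98.3% of the 2228 higher genes and in 98.3% of the 4919 lower ones. DNA replication genes had medians of -1.12 with atRA and -1.21 with DMSO, Wnt targets of -0.67 and -0.76, digestive enzymes of 2.00 and 2.10, and apolipoprotein genes of 1.88 and 1.83. The medians lay further apart for xenobiotic enzymes and pumps (1.79 with atRA and 2.75 with DMSO), nutrient transporters (1.53 and 2.09), goblet cell genes (0.75 and 1.37) and villus base genes (1.67 and 2.25), all lower with atRA. By the test of single genes, the atRA step was below the DMSO step in 3 of 34 xenobiotic genes, 1 of 26 transporters, 0 of 21 goblet cell genes and 0 of 9 villus base genes. Lists with closer medians held called differences too. The atRA step was below in 3 of 19 digestive enzymes, and below in 2 and above in 1 of 22 apolipoprotein genes. Of 33 PPAR targets 3 were above and 1 below, and 0 of 44 replication genes and 0 of 16 Wnt targets differed. The difference of the steps was tested gene by gene in the same fit. A step is called above another where its signed log2 value is the more positive, whichever moved further. The atRA step was above the DMSO step in 16 genes (0.129%) and below it in 22 (0.177%), or 23 and 38 with the culture as a block. Of the 16, 8 had a DMSO step above 0. The others include Tgm1, a transglutaminase of cornified cells (-0.19 with atRA and -2.11 with DMSO), and Wnt10a (-0.18 and -1.44). With atRA both were already near 0 RPKM on day 3, at 0.167 (Tgm1) and 0.231 (Wnt10a), against 5.47 and 3.54 with DMSO. On the log2(RPKM + 1) scale falls from such levels are compressed, so a smaller fall with atRA cannot be read from these values. Leaving out 1 culture of a group gave 6 to 13 and 7 to 29: the lowest count above came without culture 2 of DMSO on day 3, and the lowest below without that culture or without culture 1 of atRA on day 4. Of the 20 named genes with a called difference, Fabp1, Sis, Alpi, Cyp2c66 and Trpm6 were called under each of the 15 alternatives run.

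**Figure D3:**
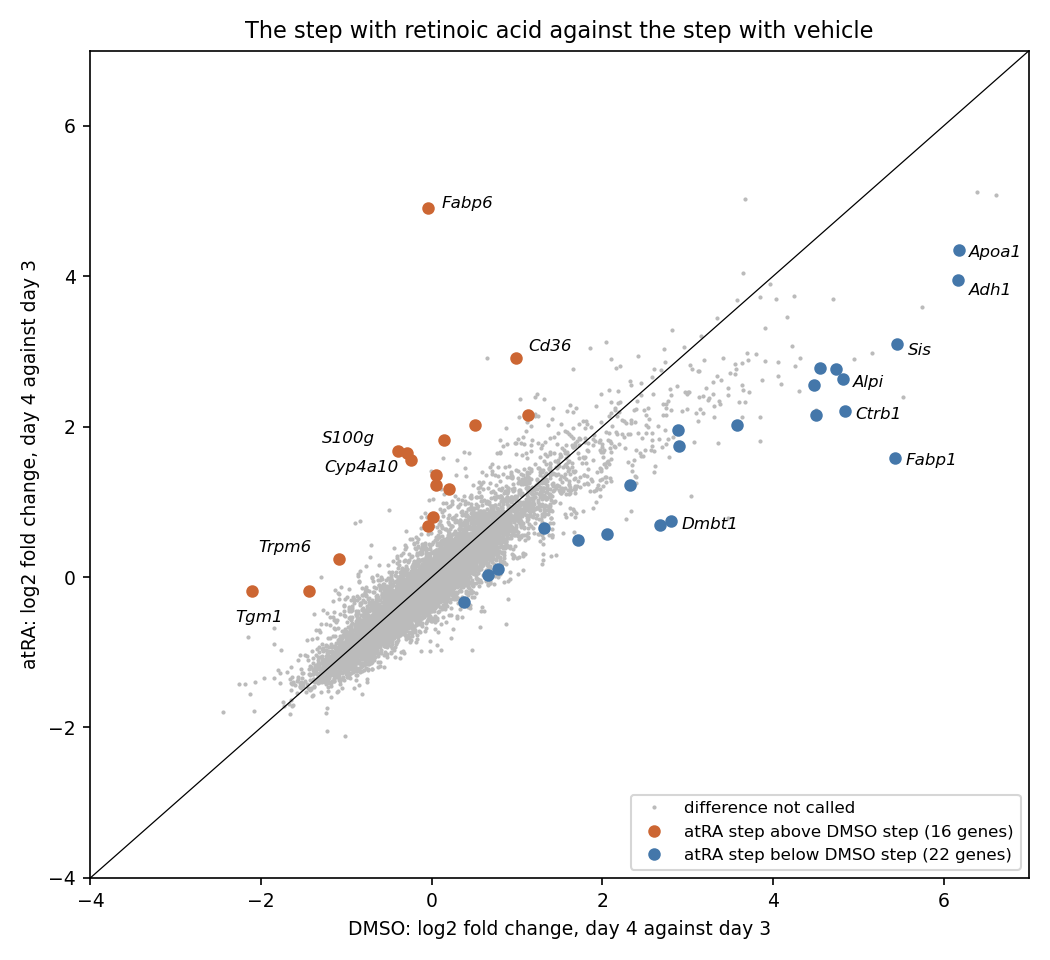
Log2 fold change from day 3 to day 4 with atRA (y axis) against that with DMSO (x axis), a point for each of 12445 tested genes, with the line of equal change. The 16 genes with the atRA step above the DMSO step are orange and the 22 with it below are blue, and Fabp6 stands apart at 4.91 against -0.04.

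Most of the 22 genes with the atRA step below the DMSO step rose with both treatments, 21 having a step above 0 with atRA and 22 with DMSO. Fabp1 stood at 7669.8 ± 253 RPKM (SD, n = 2) on day 3 with atRA and at 23002 ± 287 on day 4, and with DMSO at 54.4 ± 6.49 and 2382 ± 198. The difference of the log2 steps was -3.84 ± 0.50 (adjusted p = 0.00217), although on day 4 the atRA organoids still held the higher level. Sis stood at 36.3 ± 9.08 and 314 ± 35.1 RPKM with atRA and at 3.83 ± 0.819 and 209.6 ± 3.41 with DMSO (-2.36 ± 0.31, adjusted p = 0.00217). Alpi stood at 64.3 ± 0.917 and 406 ± 52.3 RPKM against 8.45 ± 1.72 and 263 ± 12 (-2.18 ± 0.24, adjusted p = 0.000379). In 20 of the 22 genes both atRA cultures lay above both DMSO cultures on day 3, a level that enters the difference, and in 16 on day 4. Choosing genes by this difference favours a high day 3 level with atRA, and no share over all genes is set beside these counts. Apoa1 (-1.82 ± 0.33), the defence glycoprotein Dmbt1 (-2.07 ± 0.36), the phosphatase Akp3 (-1.98 ± 0.30), the cytochrome Cyp2c66 (-2.35 ± 0.33) and Ppara (-1.10 ± 0.22) were among the others. Ctrb1, a pancreatic protease gene (-2.64 ± 0.53, adjusted p = 0.0444), rested on as little as 1 read in a day 3 library, at a mean of 0.252 ± 0.126 RPKM against 0.218 ± 0.0535 in DMSO organoids, and it and Adh1 (-2.22 ± 0.44, adjusted p = 0.044) kept the call in 3 of 15 alternatives.

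Among the genes with the atRA step above the DMSO step, several were near 0 RPKM with DMSO on both days. Fabp6 stood at 1.53 ± 0.0371 RPKM on day 3 with atRA and 78.6 ± 34.3 on day 4, and with DMSO at 0.122 ± 0.0559 and 0.0965 ± 0.136. Its difference of 4.95 ± 0.45 (adjusted p = 3.48e-05) was missed by 1 alternative, voom on the recovered reads (adjusted p = 0.474). Cyp4a10, a fatty acid hydroxylase and PPAR target, stood at 9.0 ± 0.571 and 24.6 ± 3.96 RPKM with atRA and at 0.0251 ± 0.0106 and 0.0585 ± 0.0246 with DMSO (1.31 ± 0.18, adjusted p = 0.00331), with both DMSO levels near 0. On the log2(RPKM + 1) scale changes at such levels are compressed, and the call was lost at a pseudocount of 0.1 (1.1, adjusted p = 0.574) and with voom (0.35, adjusted p = 0.965). Its relatives Cyp4a31 and Cyp4a32, named after their values were seen, had differences of 0.79 ± 0.14 and 1.16 ± 0.19, also with DMSO levels near 0. These near-identical copies may share reads. S100g, the calcium carrier calbindin D9k, stood at 80.8 ± 1.80 and 273 ± 113 RPKM with atRA and at 95.4 ± 1.92 and 72.8 ± 9.49 with DMSO (2.07 ± 0.36, adjusted p = 0.0182), with calls in 5 of 15 alternatives. The magnesium channel Trpm6 fell with DMSO, from 1.97 ± 0.00917 to 0.402 ± 0.0184 RPKM (-1.08 ± 0.08, adjusted p = 4.2e-08), against 2.44 ± 0.0273 and 3.07 ± 0.477 with atRA (1.32 ± 0.12, adjusted p = 3.48e-05). Cd36 differed by 1.93 ± 0.34 (adjusted p = 0.0191) on this scale, and with DMSO it stood at 0.0136 ± 0.00291 and 1.03 ± 0.423 RPKM. On recovered reads the sign turned (-0.61, adjusted p = 0.954).

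**Figure D4:**
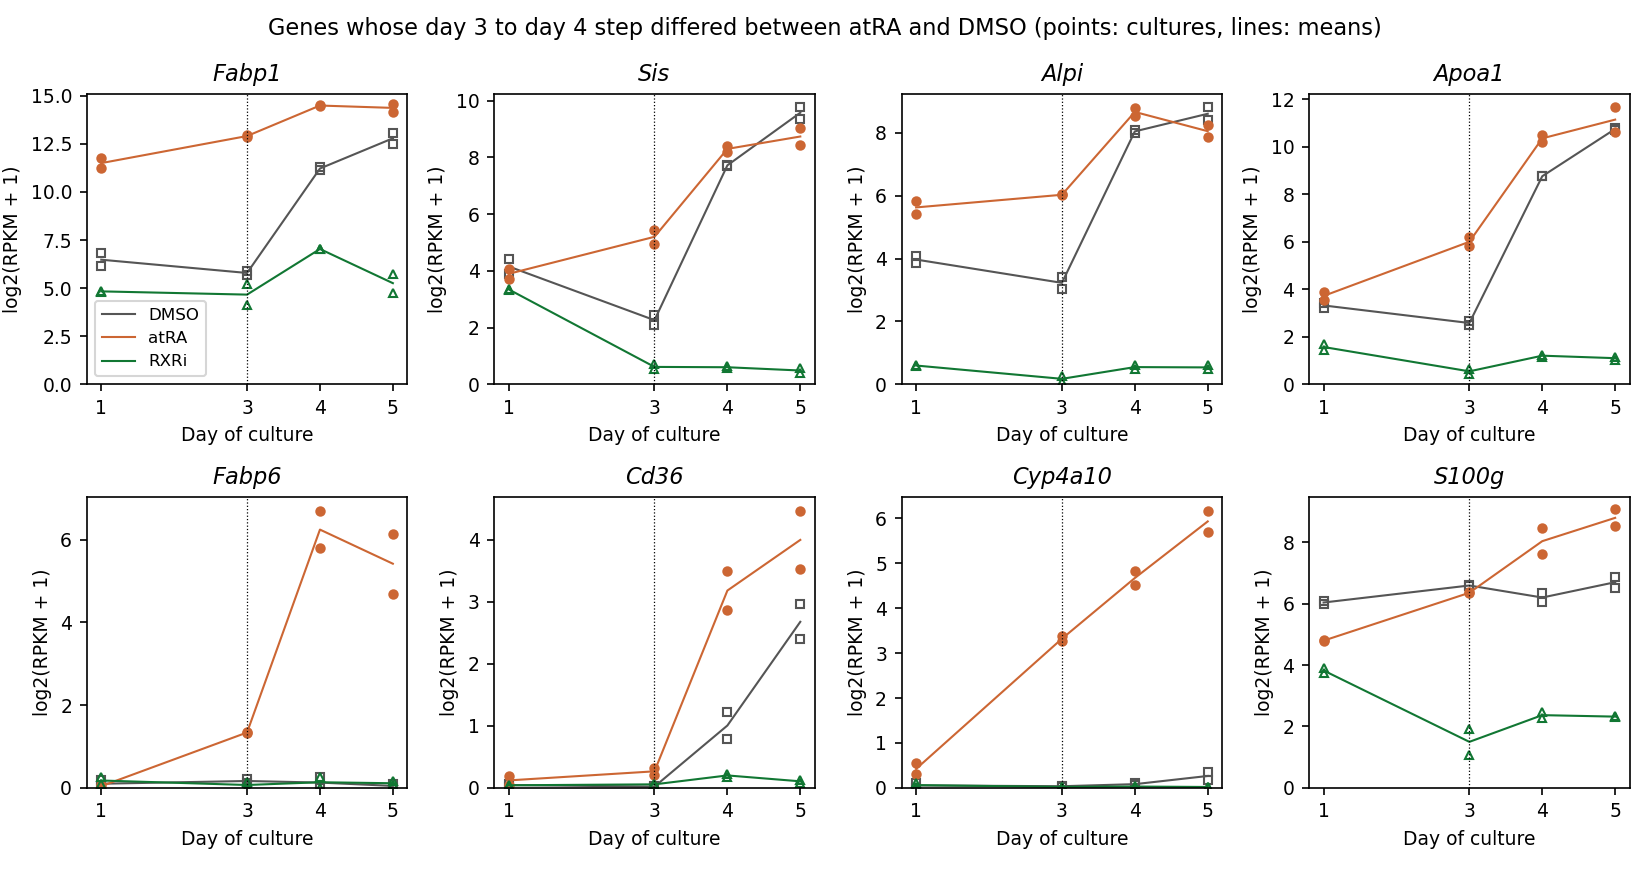
Levels (y axis, log2(RPKM + 1)) of 8 genes on days 1, 3, 4 and 5 (x axis) with DMSO, atRA and RXRi, points for cultures and lines for their means, the change of medium dotted. Fabp1, Sis, Alpi and Apoa1 start the day 3 step higher with atRA than with DMSO, and Fabp6 and Cyp4a10 stay near 0 with DMSO.

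With the retinoid X receptor antagonist the step of many enterocyte genes differed. Across all tested genes the atRA and RXRi steps correlated with a Pearson r of 0.603 and a Spearman rho of 0.701, a description over genes. The RXRi step had the same sign in 72.0% of the 2228 higher genes and in 93.5% of the 4919 lower ones. The atRA step was above the RXRi step, by its signed value, in 1059 genes (8.51%) and below it in 633 (5.09%). Digestive enzymes had a median of 2.00 with atRA and 0.02 with RXRi, and 15 of 19 differed by the test, all 15 with the atRA step above. Apolipoprotein genes had medians of 1.88 and 0.54 with 15 of 22 differing, PPAR targets 0.84 and 0.14 with 19 of 33 above in atRA and 1 below, and Paneth cell genes 0.82 and -0.64 with 16 of 23 above. DNA replication genes fell in both, with medians of -1.12 and -1.15, and 1 of 44 had the atRA step above and 0 below by the test. Wnt targets had medians of -0.67 and -0.29, with 1 of 16 above and 3 below. Sis changed by -0.01, Apoa4 by 0.53 and Reg1 by 0.52 with RXRi, against 3.10, 5.08 and 5.13 with atRA. In the other direction, the mast cell protease genes Mcpt2 and Mcpt1 rose with RXRi by 5.32 and 3.95 (adjusted p = 2.53e-10 and 5.21e-12) and changed with atRA by 0.29 and -0.01 (adjusted p = 0.296 and 0.968). With RXRi, the cultures of Sis stood at 0.438 and 0.629 RPKM on day 3 and at 0.559 and 0.479 on day 4. At such levels log2(RPKM + 1) compresses changes. Of the 10 named genes with a called difference from RXRi, 6 lost the call with voom on recovered reads. Villus tip genes had a median of 0.77 with atRA and 0.96 with RXRi, with 2 of 10 below in atRA by the test.

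**Figure D5:**
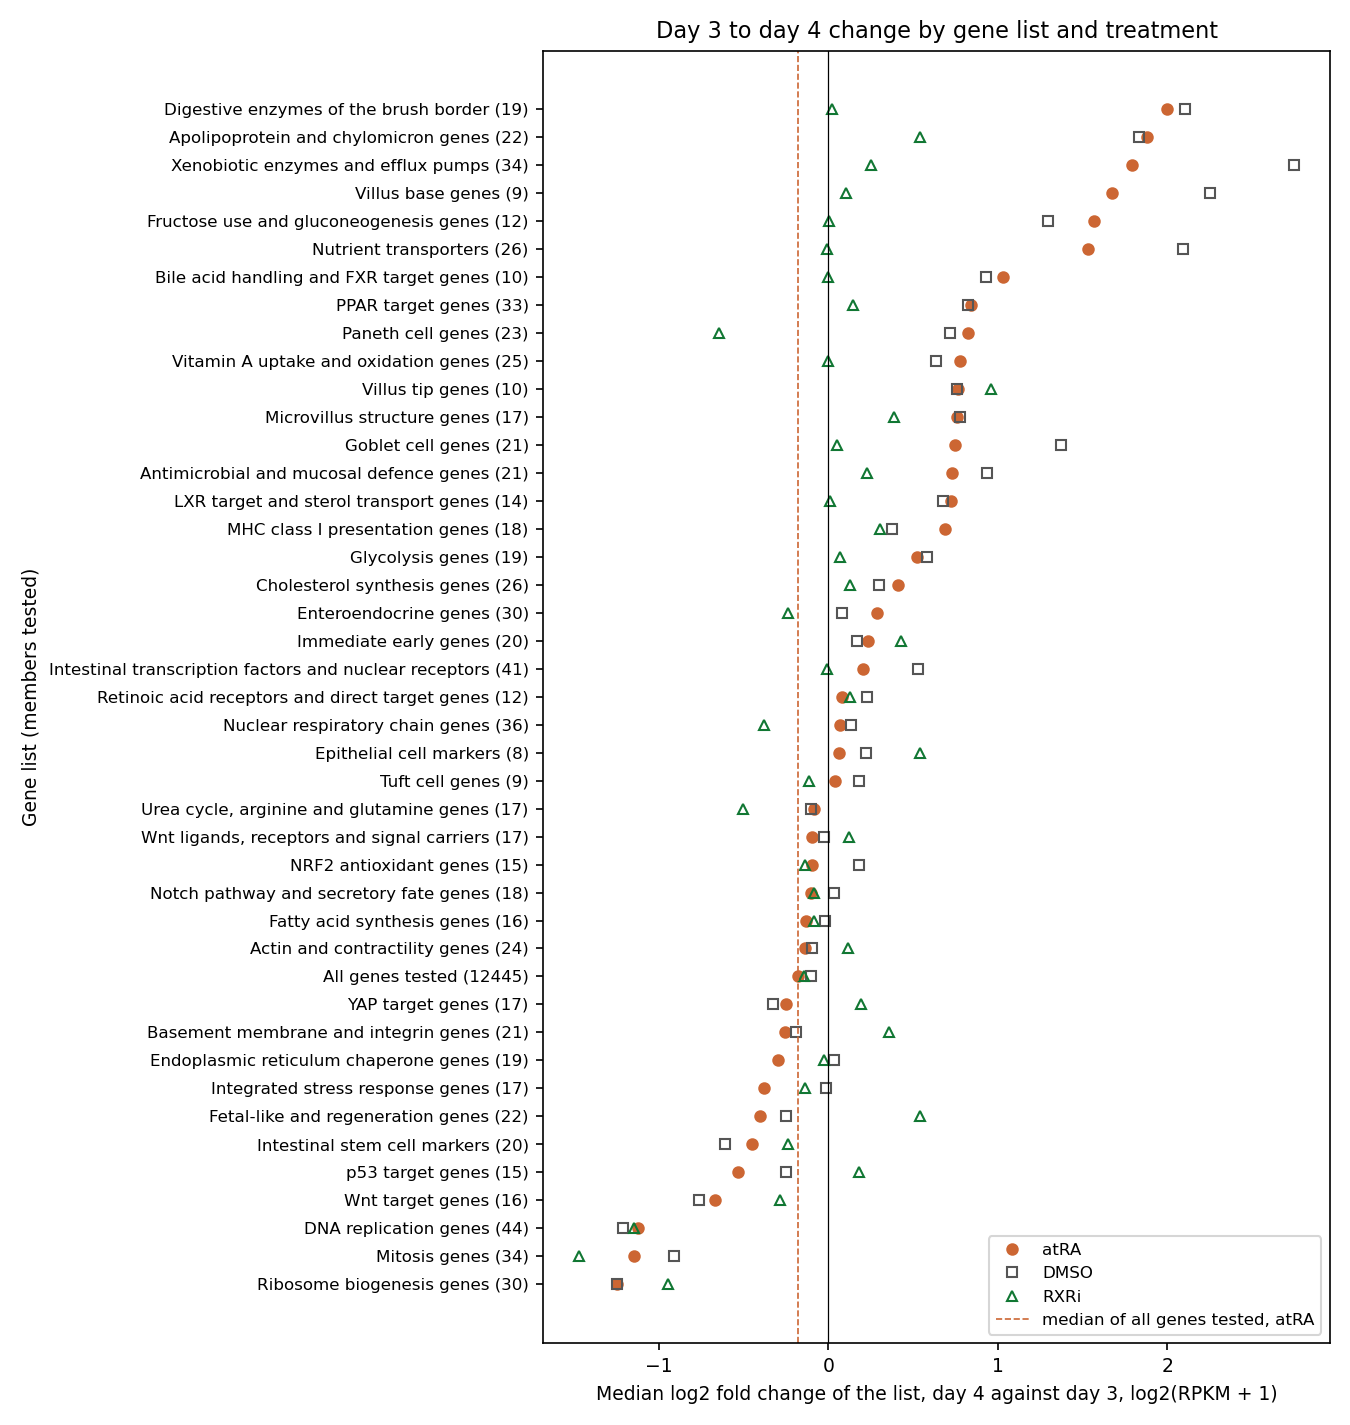
Median log2 fold change from day 3 to day 4 (x axis) of each gene list with 8 or more members tested (y axis, number tested in parentheses) with atRA, DMSO and RXRi, the dashed line being the atRA median of all genes tested (-0.18). Digestive enzymes and fat export genes lie near 2 with atRA and DMSO, and replication, mitosis and ribosome lists lie below -0.9 in all 3 treatments.

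From day 4 to day 5 with atRA 56 genes were higher (0.45%) and 22 lower (0.177%), a comparison that shares the day 4 libraries. Reg1 went on, at 2.15 ± 0.42 (adjusted p = 0.0268), as did Zg16 (1.07 ± 0.22, adjusted p = 0.0313), Gip (1.95 ± 0.25, adjusted p = 0.000986), Fbp1, an enzyme of gluconeogenesis (1.38 ± 0.22), and Cyp4a10 (1.26 ± 0.13). Fabp1 read 21379 ± 4661 RPKM on day 5 (SD, n = 2), Sis 435 ± 132 and Rrm2 36.8 ± 1.51, with adjusted p of 0.912, 0.381 and 0.727 against day 4. Wnt targets changed by a median of 0.16 and DNA replication genes by 0.25 over that day, against 0.04 for all genes.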

How the data were processed

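Messenger RNA of pooled organoid wells was sequenced with TruSeq libraries, per the labels' protocols. STAR 2.5.2b, bcl2fastq 2.17 and the mm10 build are named in the submitters' processing notes; no counting tool, strand setting or annotation is given in these sources. The authors deposited 1 table of RPKM values for 24116 genes in 52 libraries, with gene lengths divided out and library totals used as the scale. Reads were recovered by dividing the values of each gene by their common divisor. The quotients were whole for 100% of values within 0.001 reads. The division itself favours this, so it is no independent check of the recovered reads. Library totals of the 51 libraries used were 12895667 to 26206028 reads. A DMSO library of day 1 with 12443 reads was left out.

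Duplicates were averaged as log2(RPKM + 1), giving 2 cultures in each of 13 groups, since duplicates share a culture. Genes at 1 RPKM or more in at least 4 libraries (12445) were fitted with limma 3.58.1 in R 4.3.3 (trend and robust settings, 13 residual degrees of freedom, two-sided, Benjamini-Hochberg adjustment, called at 0.05), and every adjusted p comes from it. Simulated data were used to test the fit. With 2 cultures per group, p-values measure the spread between these cultures. Culture numbers pair the days and treatments because each culture, from littermates, received all treatments; the same-numbered deviations correlated at 0.204 between days 3 and 4 with atRA, and at a median of 0.258 over 15 pairs of groups (14 above 0.1). Alternatives were other scaling, pseudocount, filter, libraries and groups, the culture as a block, voom on recovered reads and each culture left out.

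Gene lists and members were chosen with earlier results of these data known. Named genes were the 15 largest called rises and falls with 1 sign in both cultures, leaving out predicted gene models and small nucleolar, microRNA and histone genes (which hold falls larger than those named), up to 4 called members of each list by smallest p and up to 2 in the other direction with up to 2 defining uncalled members, all measured Wnt targets and retinoid receptors and targets, the most abundant genes, and the 10 largest differences each way from DMSO and 5 from RXRi. RefSeq sequences and positions (GRCm38.p6) matched 12430 tested genes. A few genes are not reported here.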

Additional observations from a re-analysis of the deposited data

Results flagged for a closer look

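The step from day 3 to day 4 differed between treatments by a test of the difference itself. By its signed log2 value, the atRA step was above the DMSO step in 16 genes and below it in 22, and above the RXRi step in 1059 and below it in 633.

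Among single genes, the difference of the log2 steps (atRA minus DMSO) was -3.84 for Fabp1 and -2.36 for Sis, both higher with atRA than with DMSO on day 3, and -2.64 for Ctrb1, whose cultures overlapped on that day. It was 4.95 for Fabp6, 2.07 for S100g and 1.93 for Cd36. The value of Cd36 changed sign on recovered reads. Ctrb1 kept its call in 3, S100g in 5 and Cd36 in 6 of 15 alternatives.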

How the results depend on the processing

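All 2228 higher and 2829 of the 4919 lower calls of the atRA step were among the 3694 and 2829 made after median-of-ratios scaling. Keeping all 52 libraries gave 1259 higher and 2038 lower; that setting admits a culture mean with a library of 12443 reads. Other settings stayed within 1.5 times, voom on recovered reads giving 2257 and 5033, and leaving out a culture 1705 to 2041 and 3899 to 4539. Of 236 named genes called in the step, 161 kept the call in each of 11 alternatives, and Prdx1 alone turned sign (0.12, scaled).

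For the difference from DMSO (atRA step above in 16, below in 22), steps above numbered 5 with all libraries, 5 at pseudocount 0.1, 41 with the groups of days 3 and 4 only and 4 with voom, and steps below 5 with all libraries, 11 scaled, 12 without a filter and 42 with days 3 and 4 only. Leaving out a culture gave 6 to 13 and 7 to 29. Cd36 turned to -0.61 with voom. For the difference from RXRi (1059 above, 633 below), all libraries gave 392 and 132, and leaving out a culture 681 to 987 and 345 to 519. The cause of these moves was not tested.

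With the culture as a replicate block, the pairing gave 2351 higher and 5139 lower genes for the step, 23 and 38 for the difference from DMSO and 1200 and 772 for that from RXRi. All 22 genes with the step below that of DMSO were among the 38, and the block moved no other count by over 1.5 times. With 2 cultures per group the precision rests on spread pooled over 13 groups, and a gene of 1 kb with under 0.114 to 0.162 RPKM rests on fewer than 3 reads, counting error only.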

Other observations

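Genes of antigen presentation and defence rose beside those of absorption. Of 18 MHC class I presentation genes 15 rose and 0 fell under both scalings, with a median of 0.69. H2-Q2, a non-classical class I gene, went from 22.2, 22.8, 18.2 and 20.6 to 108, 114, 159 and 155 RPKM (2.60 ± 0.25, limma adjusted p = 6.84e-07), and H2-T23, which presents signal peptides, changed by 1.41 ± 0.13. Class I genes are near-identical in part and may share reads. Of 21 antimicrobial and mucosal defence genes 11 rose and 1 fell under both scalings, and the member that fell was Wfdc2, a protease inhibitor (-1.21 ± 0.27, adjusted p = 0.00123).

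Lipid and energy genes depended more on the scaling. Over all genes 17.9% rose and 39.5% fell (scaled, 29.7% and 22.7%). Of 26 cholesterol synthesis genes 14 rose and 0 fell (scaled, 23 and 0), with Insig1, which restrains the pathway, at 1.68 ± 0.25 and the synthase Hmgcs1 at 0.82 ± 0.10. Fatty acid synthesis genes rose in 5 of 16 and fell in 5 (scaled, 7 and 1), and the desaturase Scd1 went from 306, 293, 247 and 259.7 to 1162, 1210.3, 1142 and 1087 RPKM (2.06 ± 0.31). Glycolysis genes rose in 8 of 19 (scaled, 15), with the lactate exporter Slc16a3 at 2.94 ± 0.90. Nuclear genes of the respiratory chain rose in 3 of 36 and fell in 1 as deposited, against 24 and 0 when scaled.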
